A study of Drosophila melanogaster with 35 samples.

Results

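Body wall and other muscle of the fly runs on a small set of very abundant contractile proteins. In the sarcomere, the repeating unit of striated muscle, myosin motors of the thick filament pull on actin of the thin filament, calcium acts through troponin and tropomyosin to allow that pull, and giant elastic proteins tie the filaments to the Z-disc. The abdominal fat body, the fly's storage and secretory organ with roles akin to liver and adipose tissue, lines the inner face of the abdominal body wall beside its muscles and the heart tube, so a dissected fat body can carry muscle with it. The genes described here are 10 muscle contractile genes, chosen by FlyBase symbol as a readout of body wall muscle in the dissections: Mhc, Mlc1 and Mlc2 of the thick filament, Act57B, Act88F, Tm1, Tm2 and up of the thin filament, and the elastic proteins sls and bt. All 10 were among the 14649 rows of the fat body table, and 9 of them passed the filter on low counts and are among the 9819 genes tested. Act88F was the member that did not pass.

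The series profiled poly(A) RNA of adult female Drosophila melanogaster aged 30 days, and 17 fat body libraries in 4 groups are used here. S106 is a GeneSwitch driver line, in which the steroid RU486 turns on GAL4 in adult fat body and gut, and UASfoxo is a transgene that a GAL4 driver uses to express dFOXO, a transcription factor held in check by insulin signalling. The S106 control group (n = 5) and the S106 switch group (n = 4) carried the driver alone, and the S106>UASfoxo control group (n = 4) and the S106>UASfoxo switch group (n = 4) carried driver and transgene. Every group carried S106. The females were kept with males for 48 h. Switch groups then received 200 µM RU486 for 21 days and food without it for 7 days, and per the induction label control groups received none, although the treatment text of every sample names RU486. No fat body library is from flies on RU486 at dissection. The labels do not say whether libraries came from separate sets of flies or how many flies each holds, so p-values measure the spread between these libraries.

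The libraries held 6708078 to 27527703 counts. Levels are CPM, read counts scaled to a common library size by the TMM method, whose factors ran from 0.77 to 1.447. Fat body markers ran from very high to near 0. The lipoprotein gene of the hemolymph, apolpp, stood between 3196 and 17230 CPM and the yolk protein gene Yp1 between 11470 and 82050. Lsp2 and to were low, at 0.46 to 4.92 and 0.24 to 11.44 CPM, and Fbp2 was at 0 in 10 libraries. Egg transcripts varied most, with the ovary and egg markers summing to 18.96 to 3911 CPM, the highest in S106 switch replicate 4. In bulk RNA, fewer muscle cells and less muscle RNA per cell cannot be told apart, and neither can muscle carried into the dissection and expression of these genes in other cells.

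In the reference annotation (BDGP6, from Ensembl, which need not be the authors' build) the members are spread over the genome. Mhc lies on 2L from 16766566 to 16788766, sls on 3L from 2039681 to 2115611, and bt on chromosome 4 from 724400 to 776474. Mlc1 lies on 3R from 27657078 to 27660177, Mlc2 on 3R from 30171438 to 30174551 and up on X from 13593474 to 13602578. Tm1 (3R, 15278220 to 15308779) and Tm2 (3R, 15310193 to 15315197) are neighbours on the plus strand, with Act88F (3R, 15439969 to 15442177) farther along the same arm. Act57B lies on 2R from 20944021 to 20946431, and 96 bases of it are shared with a small nucleolar RNA gene on the same strand. No member row was identical to another row of the table. Exons of sls share 1089 bases with an antisense RNA and those of Tm1 share 280 bases with l(3)neo43 on the other strand; the strand setting of the counting is not given in the sources used here, so their reads may be split or shared.

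Per kilobase of annotated exon, the scale on which genes can be set against each other, Act57B had the highest level, at 440.3 ± 186.4 CPM per kilobase (SD, n = 17). Mlc2 came next at 177.0 ± 55.45, above Mlc1 at 86.8 ± 31.14, up at 84.74 ± 27.16 and Tm2 at 75.89 ± 25.52. Tm1 at 25.77 ± 2.837 and Mhc at 25.21 ± 14.71 formed a lower pair, bt at 6.412 ± 1.627 and sls at 5.841 ± 1.779 the lowest of those tested, and Act88F stood at 0.2454 ± 0.3379. Within single libraries Act57B exceeded Mlc2 in 16 of 17, Mlc2 exceeded Mlc1 in 17 of 17 and Mhc exceeded bt in 17 of 17. The order of 4 other pairs of neighbours changed more often: Mlc1 exceeded up in 7 of 17, up exceeded Tm2 in 15, Tm1 exceeded Mhc in 10 and bt exceeded sls in 13. The lengths are unions over all annotated transcripts, from 1414 bases for Mlc1 to 58996 for sls, so a level per kilobase also counts exons that a tissue may not use.

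Mhc encodes the heavy chain of muscle myosin, the motor of the thick filament. Its level was 131, 409, 204, 403 and 124 CPM in S106 control replicates 1 to 5 and 148, 226, 466 and 146 CPM in S106 switch replicates 1 to 4. It was 127, 98.2, 129 and 54.9 CPM in the S106>UASfoxo control libraries and 363, 377, 345 and 131 CPM in the S106>UASfoxo switch libraries. All 4 S106>UASfoxo control libraries lay below all 4 S106>UASfoxo switch libraries, by a small gap, since the lowest switch library stood just above the highest control library. With plain library totals in place of TMM they overlapped, with control libraries up to 144.6 CPM and switch libraries from 130.5. The S106 groups each held libraries at both levels and overlapped. Group means were 254 ± 142, 246 ± 151, 102 ± 34.6 and 304 ± 116 CPM (SD) in the order above.

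The essential light chain Mlc1 and the regulatory light chain Mlc2 bind the neck of that same motor, and their levels did not go with those of Mhc. Mlc2 stood at 349, 397, 616, 509 and 232 CPM in S106 control and at 314, 374, 407 and 149 CPM in S106 switch. It stood at 454, 439, 448 and 377 CPM in S106>UASfoxo control and at 284, 650.5, 367 and 510.5 CPM in S106>UASfoxo switch. On the TMM scale the S106>UASfoxo control libraries, the group with the lowest mean for Mhc, were in the middle of the range for Mlc2. They were close to each other, with a spread of 8.29% of their mean. With plain library totals their Mlc2 mean was the highest of the 4 groups, at 449.3 ± 75.62 CPM (SD), with libraries from 383.3 to 516.6. Mlc1 was 102, 111, 194, 130.0 and 74.6 CPM in S106 control, 86.9, 98.9, 131 and 40.3 in S106 switch, 126, 138, 158 and 137 in S106>UASfoxo control, and 77.9, 213, 101 and 169 in S106>UASfoxo switch. For both light chains all 4 groups overlapped on the TMM scale. There S106 switch replicate 4 was the lowest library and S106>UASfoxo switch replicate 2 the highest. With plain totals the highest library was an S106>UASfoxo control, at 186.4 CPM for Mlc1 and 516.6 for Mlc2. For Mlc1 the S106 switch libraries, up to 116.0 CPM, then lay below the S106>UASfoxo controls, from 120.3.

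**Figure D1:**
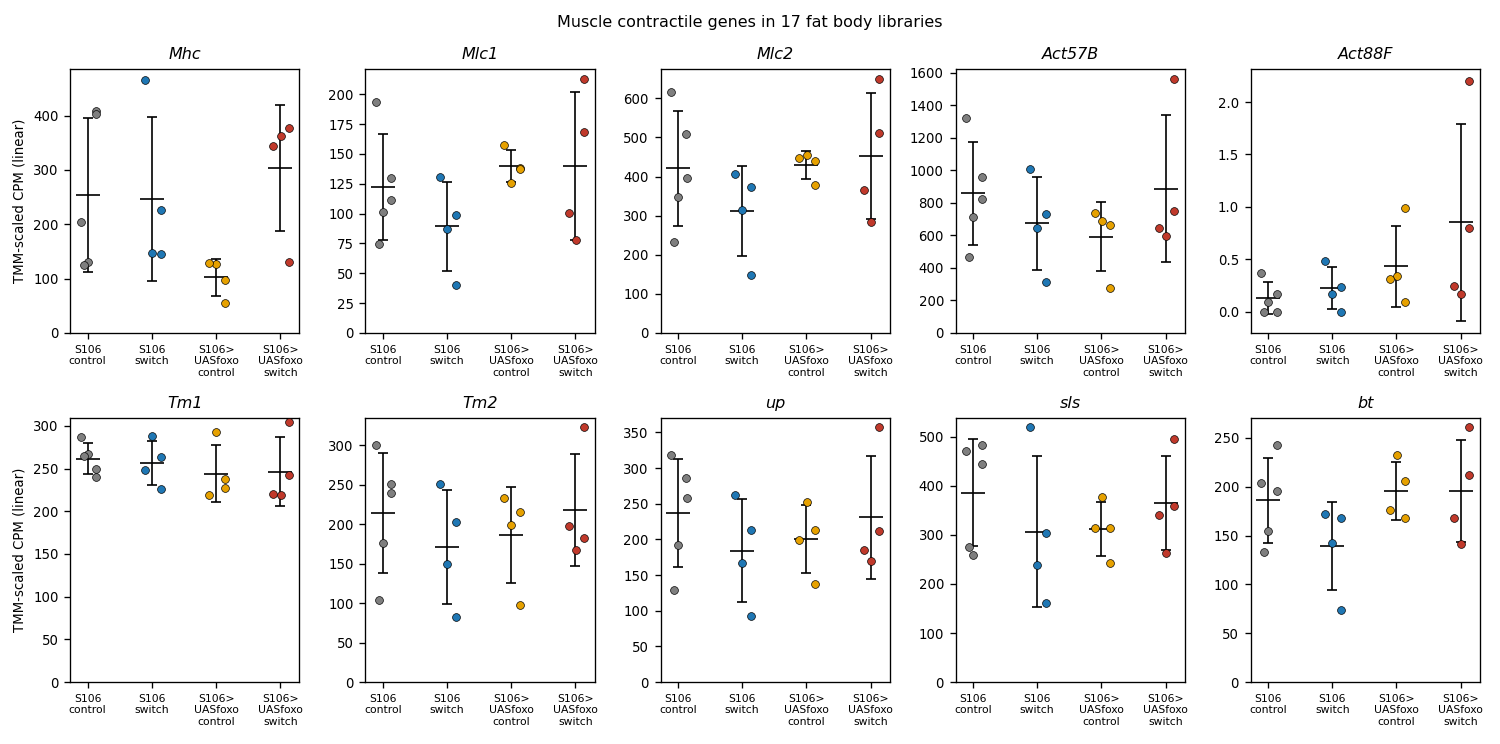
Level of each of the 10 members in the 17 fat body libraries, as TMM-scaled CPM on linear axes that differ between panels; points are libraries, dashes with bars are group mean ± SD (n = 5, 4, 4 and 4). Mhc is the panel in which the S106>UASfoxo control libraries, at 54.9 to 129 CPM, lie below the S106>UASfoxo switch libraries, at 131 to 377; Tm1 stays between 219 and 304 in every library and Act88F does not exceed 2.2.

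Of the thin filament genes, Act57B, the main actin of larval and adult body wall muscle, was 712, 961, 1322, 827 and 469 CPM in S106 control and 646, 732, 1006 and 311 CPM in S106 switch. It was 686, 665, 738 and 278 CPM in S106>UASfoxo control and 594, 1560.0, 648 and 749 CPM in S106>UASfoxo switch. All groups overlapped, and 1 library in each S106>UASfoxo group stood apart from the rest of its group, replicate 4 of the controls on the low side and replicate 2 of the switch group on the high side. Act88F, the actin of indirect flight muscle, had 0 to 15 counts per library and 58 in all. It was at 0 in S106 control replicates 2 and 5 and S106 switch replicate 2, where a count of 0 allows up to 0.204, 0.226 and 0.408 CPM (3 counts). Its highest level was 2.2 CPM, in S106>UASfoxo switch replicate 4. No fold is given for it. The flight muscle genes fln, of the thick filament, and TpnC4, a troponin C, and Zasp67 of the Z-disc also failed the filter, with at most 4.5, 1.61 and 0.378 CPM.

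Tm2 and up encode a muscle tropomyosin and troponin T, the regulatory proteins that lie along actin. Tm2 was 177, 240, 300.5, 251 and 104 CPM in S106 control, 149, 203, 251 and 82.7 in S106 switch, 198, 215, 233 and 97.9 in S106>UASfoxo control, and 167, 322, 198 and 182 in S106>UASfoxo switch. For up the values were 192, 258, 318, 285 and 129.5 CPM, then 167, 213.5, 262 and 92.5, then 252, 213, 199.6 and 138, and then 170.2, 357, 185 and 211, in the same order. On the TMM scale the libraries lowest and highest for the light chains were also lowest and highest for these genes, and no group was separate from another. Tm1, whose locus makes muscle tropomyosin as well as cytoplasmic forms, including one that acts in oocyte RNA transport, varied least on the TMM and RLE scales. It stood at 267.5, 240.2, 287, 249 and 264 CPM in S106 control, 287.5, 226, 248.5 and 263 in S106 switch, 292.5, 227, 219 and 237 in S106>UASfoxo control, and 219, 304, 220.0 and 242 in S106>UASfoxo switch. That is a 1.39-fold range over 17 libraries, against 3.21-fold to 8.49-fold for the other tested members. With plain library totals Tm1 ranged 2.05-fold and lay within the others, which ran from 1.88-fold for sls to 4.85-fold for Mhc.

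The elastic proteins are sls, a titin relative that includes kettin and ties actin to the Z-disc, and bt, projectin, a giant kinase of the connecting filament. In S106 control sls was 259.6, 443.5, 471, 482 and 275 CPM and in S106 switch 239, 303, 519.6 and 162. It was 377, 314, 313 and 242 CPM in S106>UASfoxo control and 264, 494, 340.2 and 358 in S106>UASfoxo switch. For bt the values were 155, 196, 204, 243 and 133 CPM, then 143, 168, 172 and 74.3, then 233, 206, 176 and 168, and then 142, 261, 168.5 and 212. Both genes overlapped between all groups. On the TMM scale the lowest library was again S106 switch replicate 4. The highest was S106 switch replicate 3 for sls and S106>UASfoxo switch replicate 2 for bt.

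Ratios within a library do not depend on its scaling, and some pairs of members kept a steadier ratio than others. The read count ratio of Mlc1 to Mlc2 ran only from 0.255 to 0.363 over the 17 libraries, a 1.42-fold range, and that of up to Tm2 from 0.855 to 1.41. Mhc to Mlc2 ran from 0.145 to 1.28, an 8.83-fold range. It was 0.376, 1.03, 0.331, 0.792 and 0.535 in S106 control, 0.47, 0.604, 1.14 and 0.981 in S106 switch, 0.28, 0.223, 0.287 and 0.145 in S106>UASfoxo control, and 1.28, 0.58, 0.94 and 0.257 in S106>UASfoxo switch. The S106>UASfoxo control libraries lay below all libraries of both S106 groups, and below 3 of the 4 S106>UASfoxo switch libraries. These ratios were looked at after the levels were known and are given without a test.

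**Figure D2:**
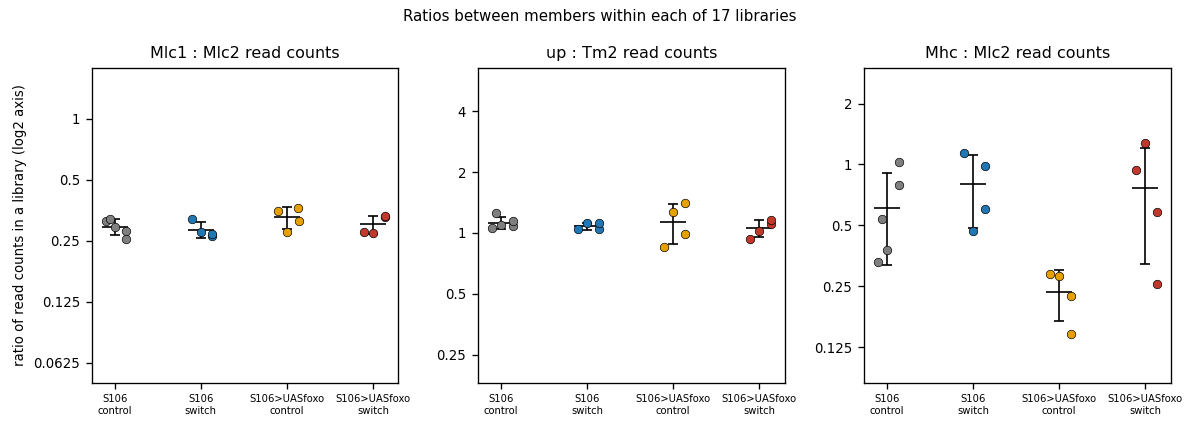
Ratio of read counts of a pair of members within each library, on log2 axes that span the same number of doublings in each panel; points are libraries, dashes with bars are group mean ± SD. Mlc1 to Mlc2 and up to Tm2 stay within 1.42-fold and 1.65-fold over all libraries, while Mhc to Mlc2 spans 8.83-fold, with a mean of 0.234 ± 0.0657 in S106>UASfoxo control.

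Over the 17 libraries, 7 members (Mlc1, Mlc2, Act57B, Tm2, up, sls and bt) were high and low in much the same libraries. Their 21 pairs had a Pearson r of log2 CPM from 0.668 to 0.968, with a median of 0.843. Mhc had an r of −0.04 to 0.624 with the other tested members, 0.201 with Mlc2 and 0.624 with Act57B, and Tm1 had −0.04 to 0.296. With each group's mean removed, Mhc with Mlc2 came to 0.399 and Mlc1 with Mlc2 to 0.965. These correlations are descriptions over libraries that share a laboratory, a protocol and the same scaling, and carry no p.

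Other muscle genes were set against the same pair. Of 32 tested muscle genes other than Mhc and Mlc2, 12 had a higher r with Mhc and 20 a higher r with Mlc2. Every gene falls on 1 side by this rule, so the split does not show separate sets: Tm1 was near neither (−0.04 with Mhc and 0.144 with Mlc2), and Msp300, a giant nesprin of the nuclear envelope, was near both (0.646 and 0.736). The muscle genes nearest Mhc were Obsc, the giant M-line kinase obscurin (r 0.97 with Mhc and 0.168 with Mlc2), tn, a TRIM protein that keeps the sarcomere intact (0.968 and 0.163), and Prm, paramyosin of the thick filament core (0.962 and 0.295). Most of the genes nearest Mhc were outside the muscle lists, which held 3 of the 15 tested genes of highest r with it; ckn (0.983) and jbug (0.978) led, and Obsc was the muscle gene of highest rank, at 7. Argk1, arginine kinase, the calcium channel RyR, the calcium pump SERCA, Mef2, the transcription factor of muscle genes, and Actn, the Z-disc crosslinker alpha-actinin, were on the Mhc side too. Nearest Mlc2 were wupA, troponin I (0.971 with Mlc2 and 0.0819 with Mhc), Mlc1 (0.968 and 0.0567) and Mf, the thick filament protein myofilin (0.95 and 0.405). So genes of the same filament were on different sides: Prm beside Mhc, and Mf beside the light chains.

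Annotated exon length differed between the sides. The median was 7859 bases for the 12 genes nearer Mhc, with a range of 3136 to 32768, and 2572 bases for the 20 nearer Mlc2, with a range of 791 to 69810 that includes the longest muscle genes, Msp300 and sls. Across all tested genes the median was 2007 bases. Among all tested genes 238 (2.42%) had an r above 0.9 with Mhc, with a median length of 3720 bases, and 46 (0.469%) had such an r with Mlc2, with a median of 1463 bases. The part of transcript length or RNA quality in the difference between Mhc and the light chains was not tested.

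**Figure D3:**
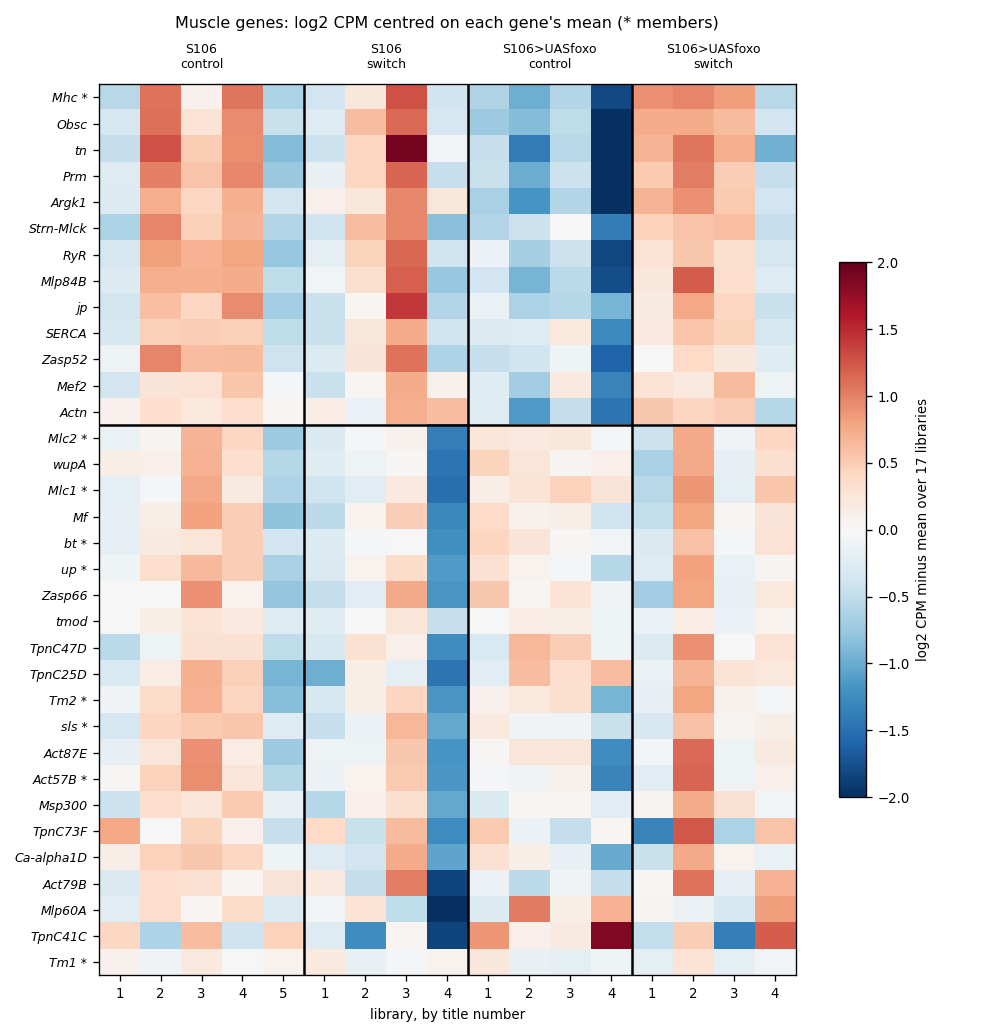
log2 CPM of 34 tested muscle genes in 17 libraries, each gene centred on its mean, in rows ordered by correlation with Mhc (above the line) or Mlc2 (below it); columns are libraries by title number within group, and asterisks mark the members. The upper rows, placed there by their likeness to Mhc, are mostly low in the S106>UASfoxo control columns and lowest in its replicate 4, while in most lower rows S106 switch replicate 4 is the lowest column and S106>UASfoxo switch replicate 2 is high.

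S106>UASfoxo switch against its control asks what remains of past dFOXO induction together with past RU486 feeding, which this comparison alone cannot tell apart. Mhc was the member with the widest difference, at a log2 fold change of 1.57 ± 0.50 (SE), and it did not pass: the edgeR p was 0.00652 and the adjusted p 0.274. Of the other 8, Act57B stood at 0.58 ± 0.42, sls and Tm2 at 0.22 each, up at 0.20, Mlc2 at 0.07, Tm1 at 0.01 and Mlc1 and bt at 0.00. None of 9 members passed an adjusted p of 0.05, as did none of all genes tested (0% higher and 0% lower). At an unadjusted p of 0.05, 1 member (Mhc) was higher, where 10.1% of all genes were, and none was lower, where 2.82% were. On the TMM scale, though not with plain totals, Mhc was also the 1 member whose libraries did not overlap between the groups, a pattern that 2.27% of all genes showed as higher and 1.88% as lower. The member median was 0.20, beside −0.02 over all genes. It was −0.02 with plain library totals, where the median of all genes shifted to −0.22. Dropping replicate 2 of the switch group gave −0.09, and dropping replicate 4 of the controls gave 0.01. With the library round, read from library numbers in the labels, as a block the member median was 0.02, beside 0.05 over all genes. No control library is from round 3 and no switch library from round 1. The round 3 libraries of S106 control, S106 switch and S106>UASfoxo switch had member means (centred log2 CPM) of 0.525, 0.389 and 0.76. The other libraries ran from −0.99 to 0.427.

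The other muscle genes ran from −0.725 to 1.57 in that comparison. Of 25 tested muscle genes outside the members, 19 had a positive log2 fold change, where 48.5% of all genes did, 0 passed the adjusted threshold, and 7 had an unadjusted p under 0.05, all higher: Prm, Actn, Mlp84B, Obsc, tn, Argk1 and Mef2. Argk1 went from 62.9 ± 25.1 to 181 ± 60.9 CPM (SD, n = 4 each; log2 fold change 1.52 ± 0.37, edgeR adjusted p 0.273). Obsc went from 12.7 ± 5.47 to 35.3 ± 11.0 CPM (1.48 ± 0.46, adjusted p 0.274), and on the TMM scale neither overlapped between groups. Not all of these genes were separate: tn, from 17.9 ± 9.1 to 53.2 ± 24.6 CPM, overlapped, as did Prm, Actn and Mef2. wupA, at 231 ± 28.5 and 222 ± 90.9 CPM, stood at −0.06 ± 0.34. Of the 4 non-muscle contractile genes, the cytoplasmic actin gene Act5C was at 0.64 ± 0.29 with an edgeR adjusted p of 0.372, the nonmuscle light chain genes sqh and Mlc-c at 0.08 and −0.06, and the other cytoplasmic actin gene Act42A at −0.38. Markers of several other cell types stood on the higher side too, and none passed. Positive were 5 of 5 enterocyte genes, with a median of 2.79 and 3 at an unadjusted p under 0.05. So were 7 of 7 hemocyte genes (median 0.435, with Pxn and PPO2 at that p), 8 of 9 fat body genes (0.52) and 5 of 5 neuron genes (0.48). In the remaining lists 6 of 10 ovary and egg genes (0.164), 2 of 3 heart and nephrocyte genes (0.444) and 3 of 4 oenocyte genes (0.168) were positive. The enterocyte markers summed to 13.4, 419, 49.4 and 82.2 CPM in S106>UASfoxo switch replicates 1 to 4. In S106>UASfoxo control replicates 1 to 4 they summed to 27.6, 43.0, 7.37 and 30.8 CPM. Switch replicate 2 thus stood far above the other libraries, and switch replicate 1 lay within the range of the controls. The tested neuron genes other than elav were low, with mean levels of 1.23 (Snap25) to 3.0 CPM (nSyb) over the 17 libraries. The mean centred log2 CPM of the neuron list was 1.38 in S106>UASfoxo switch replicate 4, against −0.485 to 0.378 in its replicates 1 to 3. The part of these other cell types in the muscle values was not tested.

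S106 switch against S106 control gives the effect of past RU486 feeding with the driver alone. None of the 9 tested members had a positive log2 fold change, where 51.6% of all genes did, and none passed, with every edgeR adjusted p rounding to 1.0. Values ran from −0.45 ± 0.35 for Mlc1 and −0.44 ± 0.33 for Mlc2 to −0.05 ± 0.46 for Mhc and −0.03 ± 0.16 for Tm1; with plain library totals Mhc and Tm1 turned to 0.02 and 0.10. Mhc was also positive under limma-voom, at 0.02, and with any of 4 single libraries left out: 0.19 without S106 control replicate 2, 0.18 without S106 control replicate 4, and 0.135 or 0.136 when the S106 switch library left out was replicate 1 or replicate 4. None had an unadjusted p under 0.05, which 0.183% of genes had as higher and 0.509% as lower, and 0 genes were called. No member's libraries were separate between the groups, as 0.0917% of genes were as higher and 0.183% as lower. The member median was −0.35, beside 0.01 over all genes. It was −0.13 without S106 switch replicate 4, the library highest in egg transcripts, −0.23 without S106 control replicate 3, and −0.58 without S106 switch replicate 3. Of the other 25 muscle genes 4 were positive, as were 1 of 9 fat body genes, 1 of 7 hemocyte genes and 0 of 5 enterocyte genes, while 9 of 10 ovary and egg genes were.

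Subtracting the switch effect of the driver line from that of the transgene line asks whether past RU486 feeding acted differently with UASfoxo present. All 9 members had a positive difference, where 52.9% of all genes did; the sign of Tm1 (0.04 ± 0.23) turned under RLE scaling, DESeq2 and plain totals. Mhc stood at 1.62 ± 0.68, with an edgeR p of 0.0308 and an adjusted p of 0.95, and Act57B at 0.93 ± 0.59. None passed, nor did any of the genes tested, and Mhc was the 1 member at an unadjusted p under 0.05, where 1.37% of genes were higher and 0.509% lower. The member median of 0.55 became 0.32 without S106 switch replicate 4 and 0.28 without S106>UASfoxo switch replicate 2. On the TMM scale all 25 other muscle genes were positive as well, with 0 past the adjusted threshold. The same sign was seen in all tested markers of several other cell types: 9 of 9 fat body genes (median 0.80), 7 of 7 hemocyte genes (1.32), 5 of 5 enterocyte genes (3.99, with 4 at an unadjusted p under 0.05), 5 of 5 neuron genes, 4 of 4 oenocyte genes and 3 of 3 heart and nephrocyte genes. Of the ovary and egg genes 3 of 10 were positive. The enterocyte markers summed to 614 CPM in S106 control replicate 4 and 419 CPM in S106>UASfoxo switch replicate 2. Every other library was at 82.2 CPM or below. The switch effects of each genotype are part of this difference, so it is not a separate observation.

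**Figure D4:**
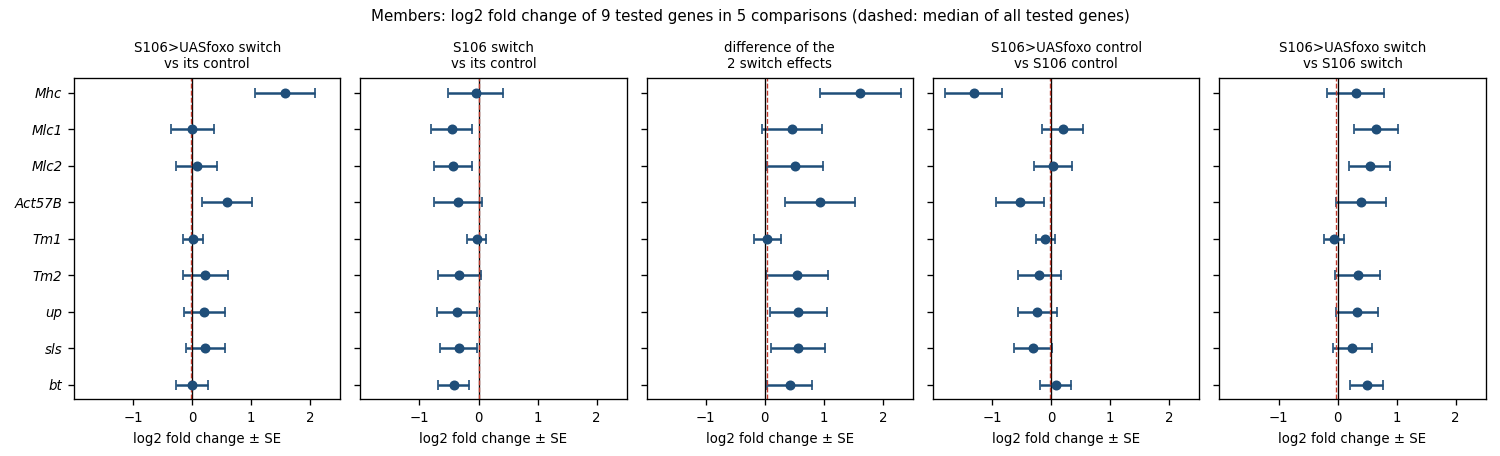
log2 fold change ± SE of the 9 tested members in 5 comparisons from the edgeR fit of all 17 libraries; the solid line is 0 and the dashed line the median of all 9819 tested genes. Mhc stands at 1.57 in the first panel, −0.05 in the second and −1.32 in the fourth, while the widest value of any other member is 0.93, for Act57B in the third panel.

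S106>UASfoxo control against S106 control compares the genotypes without RU486, and it shares a group with each of the comparisons above. Mhc stood at −1.32 ± 0.48, with an edgeR p of 0.0148 and an adjusted p of 0.392; the groups overlapped, since S106 control replicates 1 and 5 were at the level of the S106>UASfoxo controls. Act57B was at −0.54 ± 0.40, sls at −0.31 ± 0.31, up at −0.24, Tm2 at −0.20 and Tm1 at −0.10, and Mlc1, bt and Mlc2 at 0.19, 0.07 and 0.03. With the round as a block Mhc was −1.09 ± 0.36, with an edgeR p of 0.0106 and an adjusted p of 0.158. With the title number as a block, bt and Mlc2 turned to −0.03 and −0.11. None of 9 members passed, where 0.0306% of genes passed as higher and 0.0102% as lower (4 genes, against 2 genes when the round, the pairing found for these groups, was a block). At an unadjusted p under 0.05 Mhc was the 1 member, lower, where 8.83% of genes were lower and 2.2% higher. No member's libraries were separate, as those of 3.14% of genes were as lower and 0.55% as higher. The member median was −0.20, which became −0.07 without S106 control replicate 3 and −0.38 without its replicate 5, and −0.09 without replicate 4 of the S106>UASfoxo controls. With the round as a block it was −0.07. Of the other muscle genes, 8 of 25 were lower at that unadjusted threshold: Prm, Zasp52, Actn, Mlp84B, Obsc, tn, RyR and Argk1, with Obsc at −1.42 ± 0.45 and Argk1 at −1.33 ± 0.36. Values of the 25 ran from −1.5 to 0.822. Lower values were also seen in 5 of 5 enterocyte genes (median −2.43), 7 of 7 hemocyte genes (−0.215) and 8 of 9 fat body genes (−0.24). The other lists were mixed. Positive were 2 of 3 heart and nephrocyte genes (median 0.101), 2 of 5 neuron genes (−0.04), 4 of 10 ovary and egg genes (−0.185) and 1 of 4 oenocyte genes (−0.18). Of all genes 48.5% had a positive log2 fold change. The enterocyte markers summed to 614 CPM in S106 control replicate 4, against 15.3 to 62.0 CPM in the other S106 controls. In the S106>UASfoxo controls they summed to 7.37 to 43.0 CPM.

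S106>UASfoxo switch against S106 switch compares the genotypes after RU486. Mlc1 stood highest at 0.65 ± 0.37, then Mlc2 at 0.54 ± 0.34, bt at 0.49 ± 0.28 and Act57B at 0.40 ± 0.42, with Tm2, up, Mhc and sls between 0.25 and 0.34 and Tm1 at −0.06. None passed, the lowest edgeR adjusted p being 0.978, where 0.0407% of genes passed as higher and 0.0102% as lower. None had an unadjusted p under 0.05, which 1.13% of genes had as higher and 0.438% as lower, and none had separate libraries, as 0.611% and 0.509% of genes did. The member median of 0.34, beside −0.03 over all genes, fell to 0.12 without S106 switch replicate 4 and 0.09 without S106>UASfoxo switch replicate 2, and rose to 0.63 without S106 switch replicate 3. Of the other 25 muscle genes 20 were positive, where 46.2% of all genes were, and 0 had an unadjusted p under 0.05. Positive too were 9 of 9 fat body, 7 of 7 hemocyte, 5 of 5 enterocyte and 5 of 5 neuron genes, and 1 of 10 ovary and egg genes. The enterocyte markers summed to 419 CPM in S106>UASfoxo switch replicate 2, against 13.4 to 82.2 CPM in the other libraries of these groups.

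The libraries high in the members were high in markers of several other cell types. The mean centred log2 CPM of the 9 tested members correlated over the 17 libraries with that of 9 tested fat body genes at r = 0.918 (Spearman 0.863), of 7 hemocyte genes at 0.852, of 4 oenocyte genes at 0.811, of 5 neuron genes at 0.708, of 3 heart and nephrocyte genes at 0.707 and of 5 enterocyte genes at 0.661. With the 10 ovary and egg genes r was −0.677, and with the 4 non-muscle contractile genes −0.397. Without the 2 libraries farthest from the median these were 0.897 for fat body, 0.586 for heart and nephrocyte, 0.476 for enterocyte and −0.699 for ovary and egg. The points share scaling and library composition, and no p is given. Of the heart and nephrocyte markers, tin and prc were near 0 (at most 0.544 and 0.883 CPM), and Hand, sns and Cubn were not, with Cubn at 42.24 to 215.7 CPM. The part of these other cell types in the member levels was not tested.

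**Figure D5:**
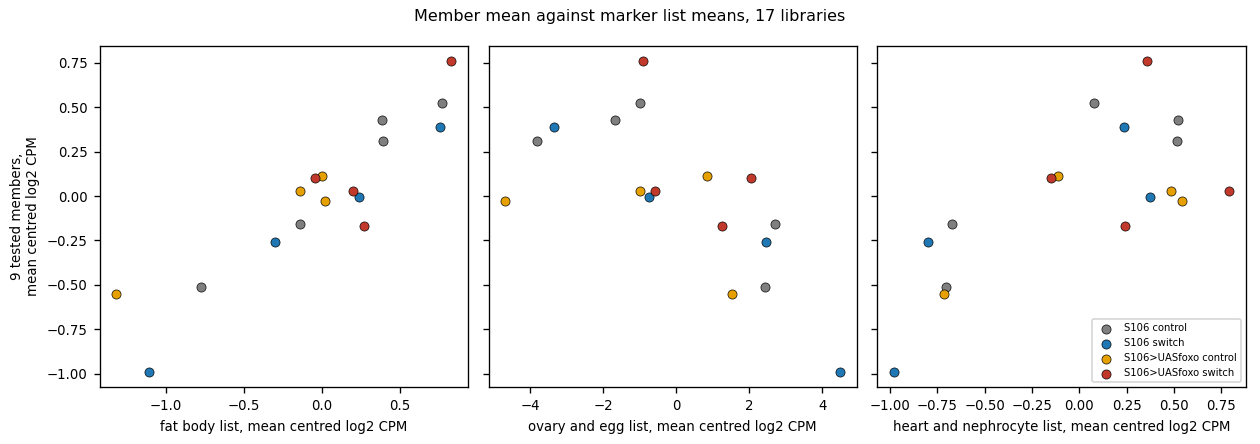
Mean centred log2 CPM of the 9 tested members (vertical axis) against that of the fat body, ovary and egg, and heart and nephrocyte marker lists (horizontal axes); each point is 1 library, coloured by group. The member mean goes up with the fat body list (r 0.918) and down with the ovary and egg list (r −0.677), with S106 switch replicate 4 at the lowest member level and the highest egg level.

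How far the members varied depended on the scaling. As a share of all counts the 10 members made up 0.185% to 0.355% of a library, a 1.92-fold range, with group means of 0.283 ± 0.0147% in S106 control, 0.243 ± 0.0467% in S106 switch, 0.247 ± 0.0435% in S106>UASfoxo control and 0.27 ± 0.0614% in S106>UASfoxo switch. On the TMM scale their sum ran from 1321 to 4541 CPM, a 3.44-fold range. With plain totals in place of TMM the range of Mhc narrowed from 8.49-fold to 4.85-fold and that of up from 3.86-fold to 2.2-fold, while Tm1 had a coefficient of variation of 28.3% in place of 11.0%, above the 18.3% of sls. Leaving the muscle genes out of the TMM factors left Mhc at 8.53-fold. The ranges of the share overlapped between all 4 groups.

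The genes whose log2 CPM most resembled the mean of all 10 members were mostly outside the muscle lists. That mean includes Act88F, which failed the filter on low counts, unlike the mean of the tested members used above. With Act88F the mean centred log2 CPM was 0.334 in place of 0.1 in S106>UASfoxo switch replicate 4. In S106>UASfoxo control replicate 4 it was −0.355 in place of −0.552. No ranking against the mean of the tested members is given. The 15 tested genes of highest r, at 0.92 to 0.965, were led by Lmpt, the LIM domain protein limpet, at 0.965, and held 1 gene of the muscle lists, Mf at 0.959. Others were the cytochrome P450 gene Cyp4e3 (0.937), dpy, a giant protein of the cuticle matrix (0.935), Oda, the ornithine decarboxylase antizyme (0.926), and Ugt302C1 (0.92), with CG12814, CG7378, CG43897, CG8306, CG42319, CG33978, asRNA:CR44990, FBgn0027341 and FBgn0259680. With group means removed, 6 of these 15 remained among the 15 highest. The median r of all tested non-members was 0.11 and that of the 25 other muscle genes 0.674, a value that 15.1% of all tested genes exceeded. The 5 genes of lowest r, −0.92 to −0.94, were Rtf1 of the Paf1 transcription complex, the deacetylase gene HDAC1, CG4707, the splicing kinase gene Prp4k and CG31612.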

How the data were processed

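The 17 fat body libraries were made from poly(A) RNA with a directional kit, per the labels' protocols. What the authors deposited are raw counts for each gene. The tools in the submitters' processing notes are HISAT2, featureCounts, SAMtools, DESeq2 and FastQC. Their versions, the genome build, strandedness in counting and whether barcodes were used to remove PCR copies are not given in the sources used. Rows were matched by FlyBase identifier to the Ensembl BDGP6 annotation, and 14538 of 14649 had a symbol. The identifiers of zip and FASN3 matched no row, and Unc-89 was found under its current symbol Obsc.

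The 4 groups were fitted together without a block in edgeR 4.0.16 under R 4.3.3, after filterByExpr (9819 genes with 99.92% of the counts), with TMM factors and the robust quasi-likelihood test, two-sided, Benjamini-Hochberg adjusted over all tested genes at 0.05. The common biological coefficient of variation was 0.51. For log2 CPM of single libraries the prior count was 2. A count of 0 stayed at 0 CPM in levels and means. The level of 3 counts is printed beside it as an upper bound, which covers counting error only. The test was also run on simulated counts with planted fold changes, whose recovery is not given here. Alternatives used DESeq2 1.42.0, limma-voom (limma 3.58.1), RLE scaling, TMM without muscle genes, other filters, blocks, the compared groups alone, a threshold of 0.01 and each library left out; plain library totals were added after the TMM factors were seen.

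Members and lists were chosen with earlier results of these data known, and all members are named, with list genes of highest r or widest fold change and the 15 highest and 5 lowest genes by r. The fitted median is over 9 members, not the 10 planned. Libraries of the same title number did not deviate together in every pair of any 2 groups compared (r −0.518 to 0.77), so the numbers were not taken to pair. Library rounds, read from consecutive library numbers in the labels, paired only the control groups of both genotypes (0.406 to 0.737). The gut libraries are not used here.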

Additional observations from a re-analysis of the deposited data

Results flagged for a closer look

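Of 40 sets of member levels, 1 for each member and group, 3 held a library far from the rest of its group by Dixon's criterion, which chance meets in about 1 of 20 sets. Mhc stood at 131 CPM in S106>UASfoxo switch replicate 4, against 345 to 377 CPM in the other libraries of its group. Act57B stood at 278 CPM in S106>UASfoxo control replicate 4, against 665 to 738, and at 1560 CPM in S106>UASfoxo switch replicate 2, against 594 to 749. Without the first of these libraries the Mhc log2 fold change of S106>UASfoxo switch against its control was 1.82 in place of 1.57. In the same comparison Act57B, at 0.58 in the main fit, ran from 0.165 to 0.708 with single libraries left out.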

How the results depend on the processing

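Over 900 member values under alternatives, no member passed; the lowest adjusted p was 0.0865, for Mhc in S106>UASfoxo switch against its control under DESeq2, beside 0.145 to 0.447 under the other fits of all libraries or of the compared groups and 0.0999 to 0.706 with a library left out. There Mhc ran from 1.26, with the library round as a block, to 1.82, and it kept its sign in 4 of 5 comparisons. Of the 900 values 66 changed sign. In the main fit these were at most 0.40 in size, for Act57B in S106>UASfoxo switch against S106 switch. The cause was not tested. In S106>UASfoxo switch against its control, in the order RLE, DESeq2, limma-voom, no filter, title number as replicate block, round block, plain totals and compared groups only, Mlc1 was −0.046, −0.046, −0.075, −0.0093, −0.014, −0.28, −0.23 and −0.047, and bt −0.050, −0.050, −0.0092, −0.0089, −0.018, −0.074, −0.23 and −0.047. With at least 10 counts in 4 libraries bt was −0.0017. Under RLE, DESeq2, plain totals and compared groups only Tm1 was −0.039, −0.040, −0.23 and −0.037. Mlc2 was −0.097 with the round block, and under plain totals Mlc2, up and sls were −0.15, −0.022 and −0.0016. In S106 switch against S106 control Mhc was 0.022 under limma-voom and 0.024 under plain totals, and Tm1 0.096 under plain totals. In the difference Tm1 was −0.016, −0.017 and −0.33 under RLE, DESeq2 and plain totals. Between the control groups the title number as replicate block gave −0.11 for Mlc2 and −0.029 for bt.

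With single libraries left out, values in S106>UASfoxo switch against its control ran from −0.27 to 0.13 for Mlc1, −0.15 to 0.18 for Mlc2, −0.17 to 0.094 for bt, −0.10 to 0.11 for Tm1, −0.029 to 0.35 for Tm2 and −0.088 to 0.33 for up. Mhc ran from −0.55 to 0.19 and Tm1 from −0.089 to 0.027 in S106 switch against S106 control, and Tm1 from −0.075 to 0.14 in the difference. Between the control groups bt ran from −0.025 to 0.19, Mlc2 from −0.12 to 0.21 and Tm2 from −0.38 to 0.011. In S106>UASfoxo switch against S106 switch Act57B ran from −0.021 to 0.66 and Tm1 from −0.18 to 0.0024.

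Genes called over the whole table depended on the tool. S106>UASfoxo switch against its control gave 53 under DESeq2, and S106 switch against S106 control 1. S106>UASfoxo control against S106 control gave 18 under DESeq2, 2 under limma-voom, 1 with the title number as replicate block, 2 with the round block, 0 in the compared groups only, 0 at 0.01 and 0 to 1 with a library left out. S106>UASfoxo switch against S106 switch gave 9 under DESeq2, 1 in the compared groups only, 3 at 0.01 and 2 to 4 with a library left out. The block changed no call of a member. It moved member medians: in the 5 comparisons, as ordered in the report, they were 0.18, −0.58, 0.69, −0.38 and 0.41 with the title number as replicate block and 0.02, −0.495, 0.50, −0.07 and 0.55 with the round block, beside 0.20, −0.35, 0.55, −0.20 and 0.34 with neither. With plain totals the median of all genes moved to −0.22, 0.11, −0.26, 0.01 and −0.30 in those 5 comparisons, and the member medians to −0.02, −0.27, 0.25, −0.12 and 0.17.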
